A study of Rattus norvegicus with 32 samples.

Results

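The chemokines and chemokine receptors of the left ventricle were followed across sham surgery, sepsis and sepsis with landiolol in rats of both sexes. They were all genes of the array whose name begins with Ccl, Cxcl, Ccr, Cxcr or Ackr and a number, with Cx3cl1, Xcl1 and Cx3cr1, and they comprised 78 of the 45598 probes that were not controls and 56 of the 33876 gene names. The names alone picked out the genes, though this choice was made with earlier results of these data known. Of the 56 genes, 40 were measured well enough to be tested in males and 39 in females, 38 of them in both sexes, and 15 in neither.

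Chemokines are small secreted proteins that bind G protein-coupled receptors on leukocytes and guide these cells along a gradient into tissue. They are named after the spacing of their first cysteines as CXC, CC, C and CX3C ligands, and the CXC ligands that carry the short ELR motif before the first cysteine attract neutrophils, whereas most of the others attract lymphocytes or monocytes. Atypical receptors bind chemokines without signalling through G proteins and remove or transport them. In the heart chemokines are made by resident macrophages, endothelial cells, fibroblasts and infiltrating leukocytes.

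The rats were Wistar rats aged 9 to 12 weeks, and the tissue was the left ventricle collected at 20 h. The sham group (5 males and 5 females) had surgery without sepsis, the CLP group (5 males and 5 females) had cecal ligation and puncture, which lets gut bacteria into the abdomen, and the CLP plus landiolol group (6 males and 6 females) also received landiolol, a short-acting blocker of the beta-1 adrenergic receptor, infused at 0.1 mg/kg/min from 1 h after CLP. Animals without landiolol received saline, and all of them had buprenorphine, cardiac imaging at 18 h and a measurement of function in the isolated perfused heart before the heart was frozen. Every sample was whole ventricular tissue of 1 animal on an array of its own. All 10 cardiomyocyte markers were well above background in every group, and their mean level per array lay between 16.5 and 17.41, so the labelled tissue and its defining markers went together. In such bulk tissue fewer cells of a type and less RNA per cell cannot be told apart.

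Levels are log2 signals after quantile normalisation within a sex, and a difference of 1 is a doubling. They rank samples for a probe and do not rank genes, because probes differ in brightness, and levels of males and females were not set side by side because each sex lay on slides of its own. Over the 120 pairs of arrays of a sex r lay between 0.936 and 0.989 (males) or between 0.93 and 0.986 (females), between 34920 and 43155 spots per array were well above background, and 0 spots were saturated. How precise a value is depends on the few arrays per group. Male slide 1 held sham replicates 1 and 2, and male slide 2 held the other 3 sham arrays. In females all 5 sham arrays lay in row 1 of their slides and all 6 CLP plus landiolol arrays in row 2, with the CLP arrays in both rows, so that the comparison of these groups can be separated from the row only through the CLP arrays.

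The sequences in front of 4 CXC ligands are shown because 3 of these genes had the largest differences of all members and the last, Cxcl11, is the neighbour of a pair of them and passed no test. Cxcl9, Cxcl10 and Cxcl11 lie next to each other on chromosome 14, where their reported probes span 36.7 kb from 17252192 to 17288890 in build rn4, and Cxcl13 lies on the same chromosome, with its probe at chr14:15127379-15127438 of rn4. The 250 bases before each start site were taken from RefSeq (build GRCr8) and are printed 5′ to 3′ on the strand of the gene, at chr14:16006916-16007165 (plus strand) for Cxcl9, chr14:15988816-15989065 (plus strand) for Cxcl10, chr14:15973478-15973727 (plus strand) for Cxcl11 and chr14:13917921-13918170 (minus strand) for Cxcl13. Capitals mark matches on either strand to letters of 3 known motifs. These are GGGA, 4 bases of any kind and CC (an NF-kappaB site), GAAA, 2 bases and GAAA (an interferon-stimulated response element) and TTC, 3 bases and GAA (an interferon-gamma activated site, bound by STAT proteins).
Cxcl9: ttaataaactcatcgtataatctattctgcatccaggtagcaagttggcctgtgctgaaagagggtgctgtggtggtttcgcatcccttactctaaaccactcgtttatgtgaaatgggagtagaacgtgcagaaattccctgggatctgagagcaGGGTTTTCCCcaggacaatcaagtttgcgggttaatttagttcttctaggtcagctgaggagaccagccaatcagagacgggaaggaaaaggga
Cxcl10: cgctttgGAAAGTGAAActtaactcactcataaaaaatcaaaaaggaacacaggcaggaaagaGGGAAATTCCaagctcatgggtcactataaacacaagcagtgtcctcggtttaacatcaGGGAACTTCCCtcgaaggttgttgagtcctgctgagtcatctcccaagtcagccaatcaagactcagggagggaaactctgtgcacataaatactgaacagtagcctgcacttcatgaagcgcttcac
Cxcl11: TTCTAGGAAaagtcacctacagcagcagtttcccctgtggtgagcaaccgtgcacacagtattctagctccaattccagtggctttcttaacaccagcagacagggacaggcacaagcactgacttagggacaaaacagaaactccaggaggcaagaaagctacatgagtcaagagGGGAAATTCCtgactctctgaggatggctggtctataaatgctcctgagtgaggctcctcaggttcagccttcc
Cxcl13: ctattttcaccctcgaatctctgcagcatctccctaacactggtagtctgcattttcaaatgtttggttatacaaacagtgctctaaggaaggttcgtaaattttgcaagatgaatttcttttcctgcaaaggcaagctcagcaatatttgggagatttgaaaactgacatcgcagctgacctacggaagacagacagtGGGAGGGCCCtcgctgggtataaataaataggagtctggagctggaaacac
The NF-kappaB letters stood in all 4 windows, at positions -94 to -85 before Cxcl9, -187 to -178 and -128 to -118 before Cxcl10 (the latter as overlapping matches on both strands), -74 to -65 before Cxcl11 and -51 to -42 before Cxcl13. The interferon-stimulated letters stood before Cxcl10 alone of the 4, at -243 to -234, and the STAT letters before Cxcl11 alone, at -250 to -242. Among the 42 members with a promoter in the table, 16 (38.1%) held the NF-kappaB letters, against 16.4% of all 33469 promoters. The interferon-stimulated letters stood in 2 members (Ccl19 and Cxcl10, 4.76%) and in 3.41% of all promoters, and the STAT letters in 4 members (Ccl17, Ccl24, Ccr6 and Cxcl11, 9.52%) and in 7.67%. A match of letters is a description and does not show that a factor binds there.

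Cxcl13 was higher in CLP than in sham hearts of both sexes, by more than any other tested member, while Cxcl9, Cxcl10 and Xcl1 were lower in both sexes. Ccl1 was lower in males, and in females its call rests on CLP arrays that gave only a bound. With Ccl1 these were the 5 genes that passed in both sexes, which is 62.5% of the male and 71.4% of the female calls. The same shares over all genes called were not counted, so these are not read as a trait of the members. In males, 1 of 40 members was up-regulated and 7 were down-regulated by CLP at a false discovery rate (FDR) of 1%, where 3.95% and 4.29% of all genes tested were called in these directions. In females, 1 of 39 was up-regulated and 6 were down-regulated, Ccl1 with its bound counted among the 6, where the background was 1.92% and 1.89%. The median log2 difference of the members was -0.29 in males and -0.05 in females, against 0 and -0.02 over all genes.

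CLP plus landiolol was compared with the same sham arrays, so this comparison is not independent of the one above. In males 2 members were higher and 3 lower (background 2.53% and 1.89%), and in females 1 was higher and 6 lower (3.17% and 2.37%). Cxcl13 and Ccr10 passed in both sexes, 40% of the male and 28.6% of the female calls. These shares too were not counted over all genes. The medians of the members were -0.12 and -0.26, against 0 and -0.01 over all genes.

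The direct comparison of CLP plus landiolol with CLP, at an FDR of 5%, called 1 member in males, Ccr9, which was higher (background 0.91% higher and 0.725% lower). It called 0 members in females by limma and 0 by SAM (significance analysis of microarrays, with 100 permutations), where 5 members and 9.42% of all genes had an unadjusted p below 0.05 and the background was 0.0574% higher and 0.0313% lower. Altogether 14 genes passed in at least 1 comparison, 3 of them higher (Cxcl13, Ackr1 and Ccr9) and 11 lower. The share of all genes that did so was not counted. The test of the difference between the sexes called 0 of 41 members by limma for each of the 3 comparisons, with a background of 0% of 19897 genes in each, and 4, 7 and 1 members had an unadjusted p below 0.05, as had 3.74%, 6.65% and 4.84% of all genes.

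**Figure D1:**
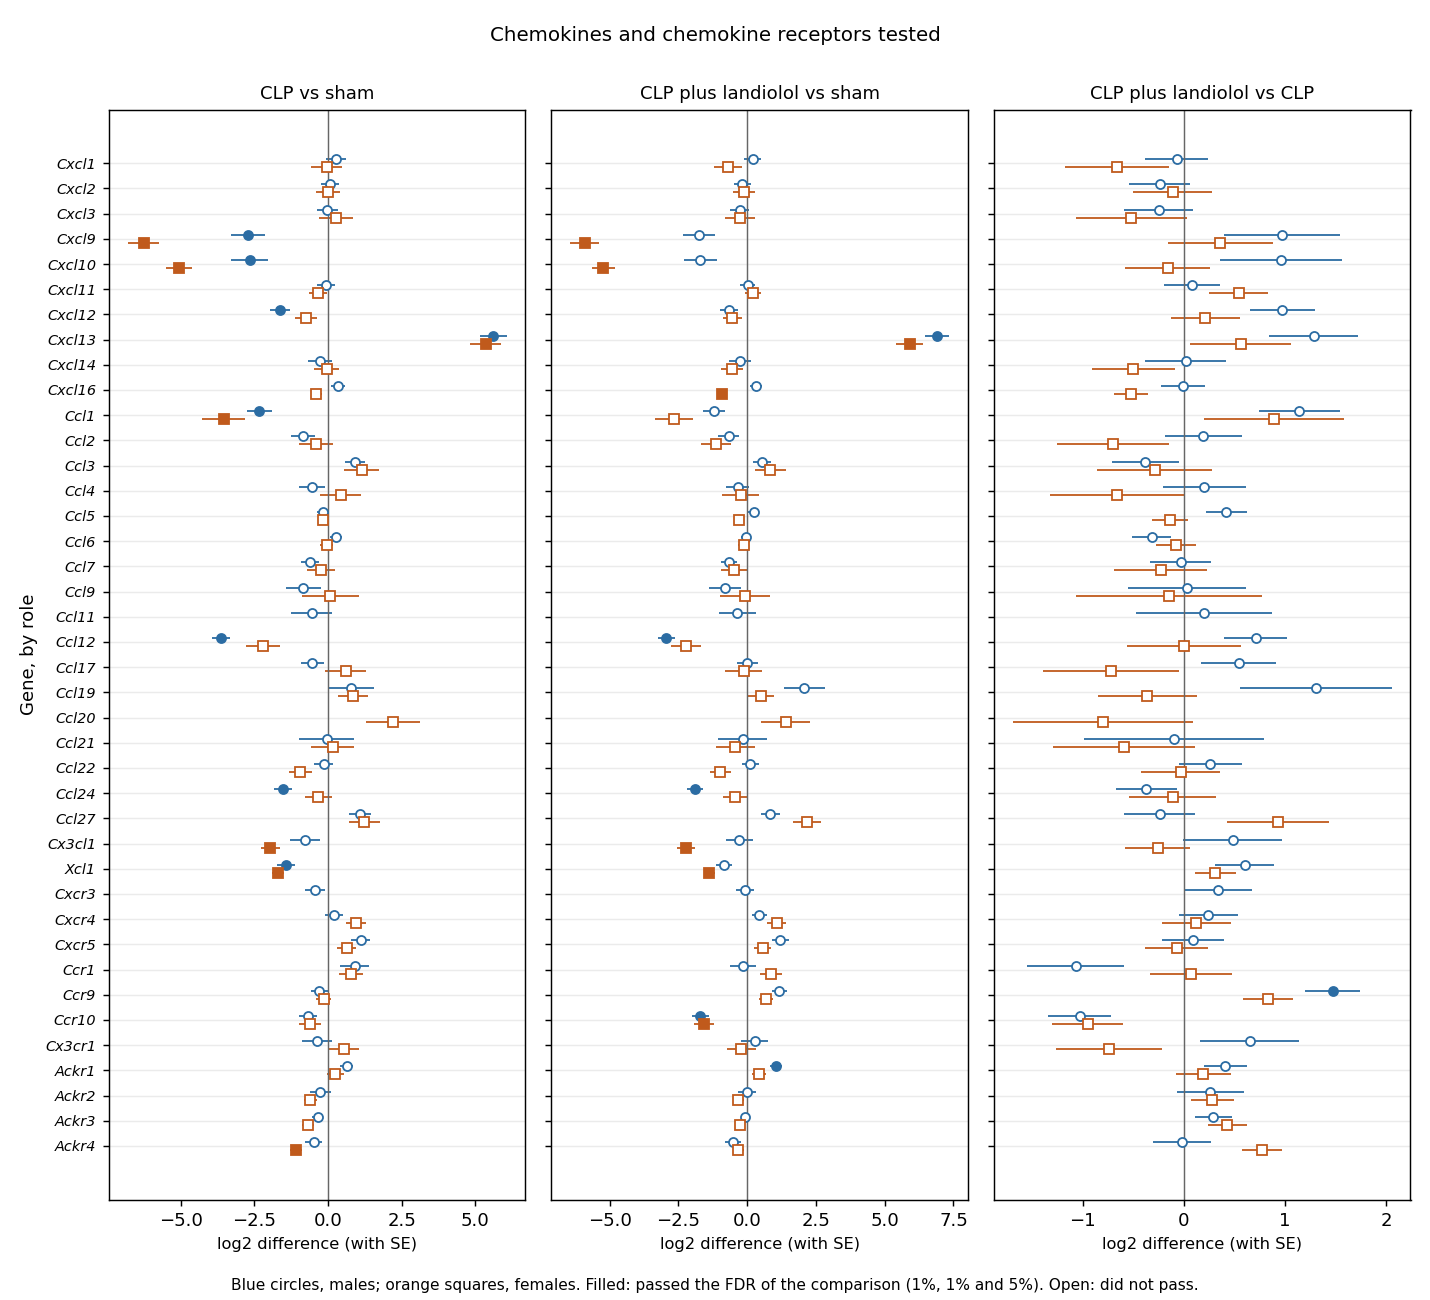
Log2 difference with its standard error (horizontal axis) for the tested chemokines and receptors (vertical axis, ordered by role), for CLP vs sham, CLP plus landiolol vs sham and CLP plus landiolol vs CLP. Blue circles are males and orange squares females, and filled symbols passed the FDR of the comparison. Cxcl13 stands to the right of 5 in the first 2 panels in both sexes, Cxcl9 and Cxcl10 of females stand to the left of -5, and the single filled symbol of the last panel is Ccr9 in males.

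The CXC ligands with the ELR motif bind Cxcr2 on neutrophils. Cxcl1, Cxcl2 and Cxcl3 were tested in both sexes and Cxcl6 in neither, and 0 of the 3 passed in any comparison. By their reported probes the differences between CLP and sham ranged from -0.02 to 0.27 (males) and from -0.04 to 0.27 (females). Between CLP plus landiolol and CLP they ranged from -0.25 to -0.07 (males) and from -0.66 to -0.11 (females). A second probe of Cxcl3 moved more in females, with mean levels of 7.99, 9.24 and 8.03 in sham, CLP and CLP plus landiolol hearts. Its female sham levels spread from 3.87 to 9.38. In males its mean levels were 8.86, 8.8 and 8.48. The mean level of Cxcl1 was 15.98 ± 0.36 (SD, n = 5) in male sham and 16.25 ± 0.36 in male CLP hearts, and 16.26 ± 0.97 and 16.22 ± 0.69 in females. The neutrophil marker list had 13 genes, of which 4 were tested in males and 5 in females. S100a8 and S100a9 encode calcium-binding proteins abundant in neutrophils. S100a9 rose with CLP by 2.5 (adjusted p = 0.00235) in males and stood 1.95 higher in females (0.0329). S100a8 rose by 4.15 (0.00019) in females. In males it also passed (2.69e-05), but it was well above background on no sham array. It passed the filter on low values there only where it was high, in septic hearts, so this p adds nothing. The other 3 genes tested in females were Fpr1, Fcnb and Padi4. Fpr1 and Padi4 stood at -1.24 (0.0555) and -1.08 (0.164). Fcnb stood at -1.39 (0.0655), but was well above background on no female array of either septic group. In females it passed the filter on low values only where it was high, in sham, so its difference and p add nothing. The median of the female list, with Fcnb counted, was -1.08. In males Padi4 and Fcnb stood at -0.64 and 0.32. The mean level of the list per array lay between 3.48 and 4.68 in male sham and between 4.93 and 6.7 in male CLP hearts, and between 3.68 and 4.91 and between 4.34 and 5.28 in females, and Elane, Mmp8 and Ngp were well above background on none of the 32 arrays. The part of neutrophils in the level of any ligand was not tested.

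Cxcl13 attracts B cells through Cxcr5. Its levels in male sham hearts were 5.81, 5.94, 6.52, 7.18 and 4.19, the last not well above background, and in male CLP hearts 10.98, 12.15, 11.47, 10.77 and 12.39. In male CLP plus landiolol hearts the lowest, median and highest were 12.06, 12.87 and 13.33. Every septic heart was thus above every sham heart, and only the highest 2 CLP values reached into the range of the landiolol group.

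CLP raised Cxcl13 in males by 5.62 (standard error 0.45, adjusted p = 2.73e-06), which is 49.3-fold, and CLP plus landiolol stood 6.9 above sham (0.44, 1.58e-07), which is 120-fold. The difference between CLP plus landiolol and CLP was 1.28 (0.44) and did not pass (adjusted p = 0.173). Within slides the CLP difference was 5.66 and 5.62, and the landiolol difference from sham was 7.2 and 6.62.

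In females, Cxcl13 levels in sham hearts were 4.92, 6.9, 5.21, 6.21 and 5.61, and in CLP hearts 12.55, 11.36, 10.91, 9.23 and 11.57. The CLP plus landiolol hearts had a lowest level of 10.81, a median of 11.78 and a highest of 12.42. No sham heart overlapped with a septic one, and the landiolol group lay within the range of the CLP group. The rise was 5.36 (0.52, adjusted p = 3.12e-05), 40.9-fold, with CLP and 5.91 (0.5, 6.01e-06), 60.2-fold, with CLP plus landiolol, and the difference between the latter was 0.56 (adjusted p = 0.789). With the row of the slide in the model the landiolol value was 7.12 (adjusted p = 0.00492), and Cxcl13 was then the only member called in that comparison.

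The receptor of Cxcl13 did not pass. Cxcr5 stood 1.11 (standard error 0.33) above sham in male CLP hearts and 1.21 (0.31) in male CLP plus landiolol hearts, with adjusted p of 0.03 and 0.0231, which miss the FDR of 1%. In females the differences were 0.63 and 0.56. Of the 7 B cell genes listed, 1 was tested and did not pass, and Blk, Cr2 and Ms4a1, the gene of CD20, were well above background on none of the 32 arrays. Of 13 monocyte and macrophage genes tested, 6 rose and 0 fell with CLP in males and 4 rose and 0 fell in females. Of all genes, 3.95% rose and 4.29% fell in males, and 1.92% and 1.89% in females. The mean level of the list per array went from between 9.12 and 9.5 in male sham to between 10.08 and 10.71 in male CLP. In females it went from between 9.2 and 9.67 to between 10 and 10.41. Adgre1, the gene of the macrophage marker F4/80, rose by 2.79 (adjusted p = 7.66e-05) in males and 2.79 (0.000259) in females. The part of these cells in the level of Cxcl13 was not tested.

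Cxcl9, Cxcl10 and Cxcl11 are ligands of Cxcr3 on activated T and natural killer cells and are known to be induced by interferon gamma. Cxcl9 and Cxcl10 fell with CLP in both sexes, and Cxcl11 did not pass. In female sham hearts the levels of Cxcl9 were 13.86, 12.93, 13.42, 11.32 and 14.24, and in female CLP hearts 7.58, 6.26, 6.87, 5.93 and 7.79. The lowest, median and highest in female CLP plus landiolol hearts were 6.03, 7.41 and 8.07. The lowest sham heart stood above the highest septic heart by more than the whole spread of the CLP group. Cxcl9 fell by 6.27 (0.54, adjusted p = 1.68e-05), 77-fold, in female CLP and fell by 5.91 (0.52, 6.9e-06), 60.2-fold, in female CLP plus landiolol.

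In male sham hearts Cxcl9 levels were 11.44, 10.36, 7.79, 7.85 and 8.13, and in male CLP hearts 5.91, 6.29, 5.89, 6.66 and 7.21. Male CLP plus landiolol hearts ranged from 6.86 to 8.08 with a median of 7.29. The 2 high sham values are those of slide 1, and the 3 sham hearts of slide 2 overlapped with the landiolol group but not with the CLP group. Cxcl9 fell by 2.72 (0.59, adjusted p = 0.00548), 6.59-fold, with CLP. Within the slides its CLP difference was -4.87 on slide 1 and -0.99 on slide 2, and the adjusted p rose to at most 0.0167 without sham replicate 2 or without any of CLP replicates 1, 2, 3 and 4, each of which ended the call. The difference of the landiolol group from sham was -1.75 and did not pass (adjusted p = 0.064).

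Cxcl10 was also highest in sham hearts. Female sham levels were 15.3, 13.93, 13.87, 12.7 and 15.31, and female CLP levels 9.93, 9.3, 8.97, 8.47 and 9.06. Female CLP plus landiolol hearts ranged from 8.37 to 9.62 with a median of 9.03, so no septic heart reached the sham range. It fell by 5.08 (0.44, adjusted p = 1.68e-05), 33.7-fold, in CLP and fell by 5.23 (0.42, 4.8e-06), 37.6-fold, in CLP plus landiolol.

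In males the Cxcl10 levels were 13.26, 11.79, 9.6, 10.47 and 9.99 in sham and 8.44, 8.97, 7.14, 7.98 and 9.27 in CLP hearts. Male CLP plus landiolol hearts ranged from 8.19 to 10.7 with a median of 9.24. The sham hearts of slide 1 were again the highest, and CLP and sham did not overlap. Cxcl10 fell by 2.66 (0.63, adjusted p = 0.00892), 6.33-fold, with CLP, and the difference was -4.34 within slide 1 and -1.4 within slide 2. This call rested on nearly every array. It was lost, at adjusted p of up to 0.0274, without any of the 10 arrays except sham replicates 3 and 5, and with the row of the slide in the model (0.015). The landiolol group differed by -1.7 from sham (adjusted p = 0.0888).

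With the row of the slide in the model the female CLP plus landiolol differences from sham were -5.87 for Cxcl9 and -4.6 for Cxcl10, each with an adjusted p of 0.0165, above the FDR of 1%. Within the female slides all differences of Cxcl9 were between -7.74 and -4.49 and those of Cxcl10 between -6.02 and -3.99. The changes of the sexes differed by -4.21 (standard error 0.8) for Cxcl9 and by -3.57 (0.75) for Cxcl10 in CLP plus landiolol vs sham, female change minus male change, and neither passed (adjusted p = 0.213 for both). Without male sham replicate 1 both passed, and without female sham replicate 4 Cxcl9 passed. For CLP vs sham the sex differences were -3.59 (adjusted p = 0.848) and -2.45 (adjusted p = 1).

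Cxcl11 had levels of 8.98 ± 0.38 (SD, n = 5) in male sham, 8.92 ± 0.67 in male CLP and 9 ± 0.41 (n = 6) in male CLP plus landiolol hearts. In females they were 9.32 ± 0.71, 8.98 ± 0.41 and 9.52 ± 0.36. All groups overlapped, and the differences from sham lay between -0.34 and 0.2. The difference between Cxcl11 and its neighbours was not tested.

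Genes of the interferon-gamma axis were followed beside these ligands. In females 1 of 16 tested rose and 5 fell with CLP, and 1 rose and 6 fell with CLP plus landiolol, and in males 2 rose and 0 fell in each. Of all genes, 1.92% rose and 1.89% fell with CLP in females, and 3.17% and 2.37% with CLP plus landiolol. In males these shares were 3.95% and 4.29%, and 2.53% and 1.89%. Irf1, an interferon-induced transcription factor, fell by 2.24 (adjusted p = 0.00216) with CLP in females, the guanylate-binding protein genes Gbp2 and Gbp5 fell by 3 (0.00134) and 2.8 (0.000579), and Ubd fell by 5.61 (0.000314). Il18, the gene of a cytokine that induces interferon gamma, rose by 1 (0.00133) in females and 1.18 (9.38e-05) in males, and Jak2 rose by 2.03 (0.000151) in males. The mean level of the list per array lay between 11.39 and 12.47 in female sham, 10.6 and 11.33 in female CLP and 10.7 and 11.14 in female CLP plus landiolol hearts, without overlap with sham. In males it lay between 10.69 and 12.1, 10.54 and 11.17, and 10.82 and 11.65. Ifng itself was well above background on no array of 4 groups, male and female CLP with and without landiolol. Whether interferon gamma had a part in the ligand levels was not tested.

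**Figure D2:**
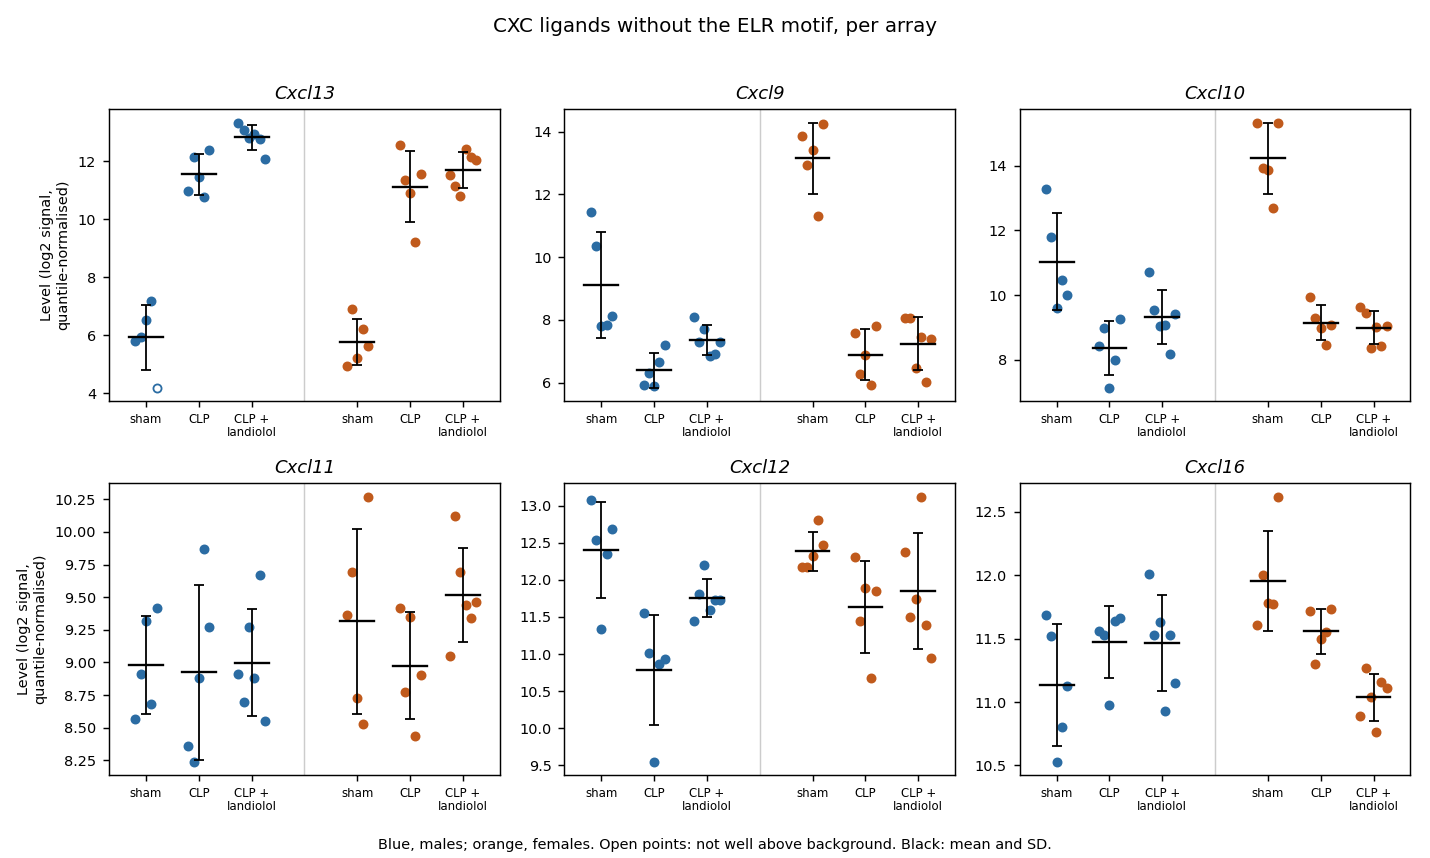
Level of 6 CXC ligands on each array (vertical axis, log2 signal after quantile normalisation) in sham, CLP and CLP plus landiolol hearts of males (blue, left) and females (orange, right). Points are arrays, open points were not well above background, and black lines are the mean and SD. Cxcl13 separates septic from sham hearts upwards, Cxcl9 and Cxcl10 separate them downwards in females, the highest 2 male sham points of both genes are the arrays of slide 1, and Cxcl11 overlaps in all groups.

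Cxcl12, the ligand of Cxcr4 that fibroblasts and endothelial cells make without stimulation, was lower in male CLP hearts. Sham levels were 13.07, 12.54, 11.34, 12.35 and 12.69, and CLP levels 11.55, 11.02, 9.55, 10.87 and 10.93. The CLP plus landiolol hearts ranged from 11.45 to 12.2 with a median of 11.73, between the means of the other groups, and sham replicate 3 lay inside the CLP range. Cxcl12 fell by 1.62 (0.34, adjusted p = 0.00393), 3.07-fold. Its 3 probes differed by between -2.27 and -0.85, and the reported one alone passed. The call was lost (adjusted p up to 0.012) without sham replicate 1, 2 or 5, and the difference of CLP plus landiolol from CLP was 0.97 (adjusted p = 0.162).

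In females the reported probe of Cxcl12 differed by -0.75 (adjusted p = 0.222), and another of its probes fell by 1.15 and passed (0.00906). The median difference of the fibroblast list with CLP was -1.34 in males and -0.95 in females. In females 0 of its 7 genes passed, and 0 passed the test of the difference between the sexes. In males some of them passed. Of 7 genes, 4 fell and 1 rose with CLP, among them the collagen genes Col1a1, which fell by 2.11 (adjusted p = 0.00154), and Col3a1, which fell by 2.05 (0.00129), and its mean level per array lay between 11.89 and 12.62 in sham and between 10.96 and 11.85 in CLP hearts. Of all genes, 4.29% fell and 3.95% rose with CLP in males, and 1.89% and 1.92% in females. The median over all genes was 0 in males and -0.02 in females. The part of fibroblasts in the level of Cxcl12 was not tested. Cxcr4 did not pass in either sex. Its largest difference from sham was 1.07 (adjusted p = 0.0498), in female CLP plus landiolol hearts.

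Cxcl16, a ligand anchored in the membrane that binds Cxcr6, passed in female CLP plus landiolol hearts alone. Female sham levels were 11.61, 12, 11.78, 11.77 and 12.62 and female CLP levels 11.72, 11.3, 11.5, 11.55 and 11.73. The landiolol hearts ranged from 10.76 to 11.27 with a median of 11.07, below every sham and every CLP heart. Cxcl16 fell by 0.92 (0.17, adjusted p = 0.00221), 1.89-fold, against sham, and its difference from CLP was -0.52 (adjusted p = 0.293). With the row of the slide in the model the difference from sham was -1.05 (adjusted p = 0.213). In males Cxcl16 stood 0.33 above sham in the landiolol group (adjusted p = 0.397), and the sex difference of -1.25 did not pass (0.28). Cxcl14, a ligand of epithelia whose receptor is not settled, differed from sham by between -0.55 and -0.05 and did not pass, and Cxcl17 was not tested.

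The CC ligands, 20 genes of which 16 were tested in each sex, are the largest class. In males 3 fell with CLP (Ccl12, Ccl1 and Ccl24) and 2 with CLP plus landiolol (Ccl12 and Ccl24). In females Ccl1 was called lower with CLP, where only a bound could be given, and 0 rose in any comparison by limma. Ccl12, which attracts monocytes, had the largest fall of all members in males. Male sham levels were 10.39, 10.98, 10.65, 11.14 and 9.83 and male CLP levels 6.97, 7.7, 7.12, 6.74 and 6.23. Male CLP plus landiolol hearts ranged from 7.04 to 8.33 with a median of 7.62, and no septic heart came near the lowest sham level.

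Ccl12 fell in males by 3.64 (0.32, adjusted p = 4.8e-06), 12.5-fold, with CLP and fell by 2.94 (0.31, 2.61e-05), 7.67-fold, with CLP plus landiolol, and these calls held without each array in turn. Female sham levels were 8.28, 9.83, 9.79, 10.21 and 8.75, and female CLP levels 7.7, 7.83, 6.86, 6.87 and 6.51. Female CLP plus landiolol hearts ranged from 4.78 to 8.81 with a median of 7.46. Sham and CLP did not overlap, but the difference of -2.22 (0.58, adjusted p = 0.0248) missed the FDR of 1%, as did that of CLP plus landiolol, also -2.22 (0.56, 0.0162). SAM called both.

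Ccl1, a ligand of Ccr8 made by activated T cells, was low in septic hearts. Male sham levels were 8.02, 7.89, 5.74, 6.16 and 7.07 and male CLP levels 4.23, 5.28, 4.16, 4.58 and 4.95, those of replicates 1 and 3 not well above background. Male CLP plus landiolol hearts ranged from 5.15 to 6.54 with a median of 5.67. All CLP hearts were below all sham hearts, and Ccl1 fell by 2.34 (0.42, adjusted p = 0.00147), 5.06-fold. Within slides the difference was -3.4 and -1.56. CLP plus landiolol did not pass against sham (-1.2, adjusted p = 0.0735) or against CLP (1.14, adjusted p = 0.188).

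In females Ccl1 had sham levels of 4.73, 8.24, 6.31, 6.78 and 8.96. It was well above background on 0 of 5 CLP arrays, so that only a bound could be given, at least 9.04-fold lower than in sham hearts, with an adjusted p of 0.0056 for the measured levels. It passed the filter on low values in females only where it was high, in sham, on 5 of 5 arrays, and with a filter on 80% of all arrays it was not tested, so its p adds nothing to the bound. For the bound each CLP array was set to its lowest signal well above background or to the probe's own signal, whichever was higher. Ccl1 was well above background on 4 of 6 CLP plus landiolol arrays. Over all 6 arrays the difference from sham was -2.66 (adjusted p = 0.019), a p with the same limit from the filter. The CLP call was lost without any of sham replicates 2, 4 and 5 and CLP replicates 2, 3 and 4 (adjusted p up to 0.0164). It was also lost with normexp correction (0.0126), with no filter (0.0146), in the fit of the compared groups alone (0.0125), in the table of the authors (0.0256) and with the row of the slide in the model (0.0209), and on each slide alone.

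Ccl24, the eosinophil attractant eotaxin-2 that binds Ccr3, fell in males. Sham levels were 7.37, 8.87, 7.37, 8.12 and 8.58 and CLP levels 6.32, 6.74, 7.02, 6.02 and 6.53. The landiolol hearts ranged from 5.65 to 6.71 with a median of 6.16, and no septic heart reached the sham range. Ccl24 fell by 1.53 (0.31, adjusted p = 0.00335), 2.89-fold, with CLP and fell by 1.9 (0.3, 0.00083), 3.74-fold, with CLP plus landiolol. The CLP call was lost without sham replicate 5 or CLP replicate 4 (adjusted p up to 0.0117).

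In females the Ccl24 differences were -0.33 and -0.44 and did not pass (adjusted p = 0.723 and 0.561). Female sham levels, at 5.89, 6.44, 8.24, 7.41 and 5.91, overlapped with those of the CLP hearts, 5.56 to 7.49, and of the landiolol hearts, 5.84 to 6.93. The sex differences of 1.2 and 1.46 did not pass either (adjusted p = 1 and 0.655).

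Ccl27, a ligand of Ccr10 known from skin, stood higher by its reported probe in septic hearts of both sexes and did not pass. Female sham levels ranged from 8.05 to 8.75 and CLP plus landiolol levels from 8.76 to 12.19, without overlap, and the difference was 2.17 (0.5, adjusted p = 0.0105). Against sham, CLP hearts stood 1.09 higher in males (adjusted p = 0.0568) and 1.24 higher in females (0.165), both without overlap. SAM called Ccl27 in male CLP and female CLP plus landiolol hearts. Another probe of Ccl27 moved much less. Its mean levels in sham, CLP and CLP plus landiolol hearts were 8.01, 8.12 and 8.25 in females and 7.45, 7.67 and 8.03 in males. A further probe, whose position overlaps that of the reported one, moved like it. In the same order its mean levels were 7.59, 8.99 and 9.79 in females and 7.69, 8.8 and 8.65 in males.

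The monocyte attractants Ccl2 and Ccl7, next to Ccl11, Ccl12 and Ccl1 within 123 kb of chromosome 10 (70257919 to 70380740 in rn4), did not pass. Ccl2 differed from sham by between -1.12 and -0.41, and its mean level was 15.1 ± 0.42 in male sham and 14.25 ± 0.57 in male CLP hearts. Ccl7 differed by between -0.65 and -0.25. Ccl3, Ccl4 and Ccl5, which attract monocytes and T cells, did not pass either. Ccl3 stood 0.92 (adjusted p = 0.0858) above sham in male and 1.15 (0.273) in female CLP hearts, whereas Ccl4 and Ccl5 differed by between -0.54 and 0.43.

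Ccl19 and Ccl21, the ligands of Ccr7 that attract dendritic and naive T cells, spread widely between hearts of a group. Ccl19 stood 2.08 (0.75, adjusted p = 0.0927) above sham in male CLP plus landiolol hearts, with an SD of 1.67 among those 6 hearts. Ccl21 differed by between -0.43 and 0.16. Ccl17 and Ccl22, ligands of Ccr4, differed by between -0.97 and 0.6. Ccl6 and Ccl9, which rodents have, differed by between -0.84 and 0.28 by their reported probes. The other probe of Ccl6 stood higher in septic hearts. Its mean levels in sham, CLP and CLP plus landiolol hearts were 7.98, 8.6 and 8.4 in males and 7.88, 8.44 and 8.44 in females. Ccl11, an eosinophil attractant tested in males alone, differed by -0.55 and -0.35, and Ccl20, a ligand of Ccr6 tested in females alone, by 2.21 (adjusted p = 0.16) and 1.41 (0.342). Ccl25, Ccl26 and Ccl28 were not tested.

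**Figure D3:**
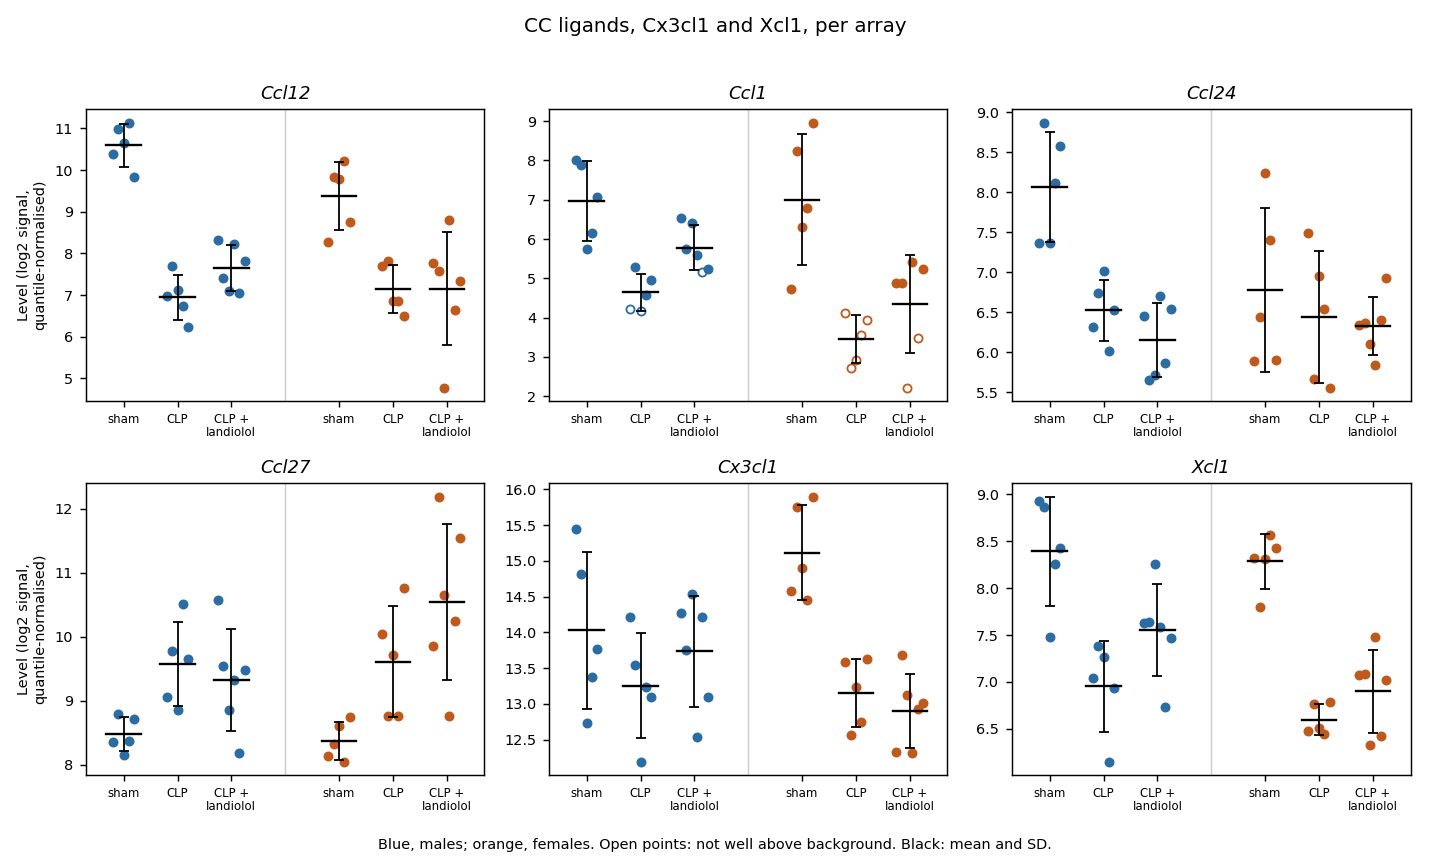
Level of 4 CC ligands, Cx3cl1 and Xcl1 on each array (vertical axis, log2 signal after quantile normalisation) in the 3 groups of males (blue, left) and females (orange, right), with mean and SD in black and open points not well above background. Male CLP and landiolol hearts lie below all male sham hearts for Ccl12 and Ccl24, and all 5 female CLP points of Ccl1 are open.

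Cx3cl1, or fractalkine, is a membrane-bound ligand of endothelial cells for Cx3cr1 on monocytes and natural killer cells. Female sham levels were 14.58, 15.75, 14.9, 14.45 and 15.9 and female CLP levels 13.58, 12.57, 13.24, 12.75 and 13.63. Female CLP plus landiolol hearts ranged from 12.31 to 13.68 with a median of 12.97. All sham hearts were above all septic hearts. Cx3cl1 fell by 1.96 (0.33, adjusted p = 0.00162), 3.9-fold, with CLP and fell by 2.22 (0.32, 0.00042), 4.66-fold, with CLP plus landiolol. With the row of the slide in the model the values were -1.99 (adjusted p = 0.0103) and -2.28 (0.147).

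In males Cx3cl1 differed by -0.77 and -0.29 (adjusted p = 0.36 and 0.756). The sham levels were 15.45, 14.82, 12.73, 13.37 and 13.77, and as for Cxcl9 and Cxcl10 the highest 2 were those of slide 1. The sex difference in CLP plus landiolol vs sham, -1.9, did not pass (adjusted p = 0.601). Of 8 endothelial genes, 1 fell and 0 rose in each sex with CLP, Emcn, which fell by 1.34 (adjusted p = 0.00165) in females. Of all genes, 4.29% fell and 3.95% rose with CLP in males, and 1.89% and 1.92% in females. Kdr rose by 0.87 (0.00841) in female CLP plus landiolol hearts, where 3.17% of all genes rose and 2.37% fell. The mean level of the list per array was 11.45 to 12.18 in female sham, 11.31 to 11.98 in CLP and 11.77 to 12.1 in CLP plus landiolol hearts. The part of these cells in the level of Cx3cl1 was not tested.

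Xcl1, or lymphotactin, is made by activated T and natural killer cells and attracts dendritic cells through Xcr1. Male sham levels were 8.93, 8.86, 7.48, 8.26 and 8.43 and male CLP levels 7.04, 7.38, 7.27, 6.15 and 6.93, with the landiolol hearts between 6.73 and 8.26 around a median of 7.61. Female sham levels were 8.32, 7.8, 8.31, 8.57 and 8.43 and female CLP levels 6.48, 6.76, 6.51, 6.44 and 6.79, with the landiolol hearts between 6.33 and 7.48 around a median of 7.05. Sham and CLP did not overlap in either sex, and the female CLP hearts lay closest together.

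Xcl1 fell by 1.44 (0.31, adjusted p = 0.00483), 2.71-fold, in male CLP and fell by 1.69 (0.21, 0.000163), 3.22-fold, in female CLP hearts. In CLP plus landiolol it fell by 1.38 (0.2, 0.00042), 2.61-fold, in females and did not pass in males (-0.84, adjusted p = 0.086). The male call was lost without sham replicate 1, 2 or 5 or CLP replicate 4 or 5 (adjusted p up to 0.015), and the female landiolol call with the row of the slide in the model (-1.42, adjusted p = 0.15).

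Lists of the cells that make and receive Xcl1 were set beside it. Of 10 T and natural killer cell genes tested in males, 0 passed by limma with either septic group. All 10 were below sham in CLP, where the median difference over all genes was 0. Of the 15 genes listed, 7 were well above background on no male CLP array (Cd2, Cd3e, Cd5, Cd8a, Klrd1, Lck and Ncr1). Those of them that were tested passed the filter on low values only through another group. The shared direction is therefore not read as a result. Of 9 in females Gzmb, the gene of the cytotoxic protease granzyme B, fell by 1.84 (adjusted p = 0.0042) with CLP and fell by 1.56 (0.00733) with CLP plus landiolol. The mean level per array was 6.79 to 7.19 in male sham, 5.93 to 6.41 in male CLP and 6.33 to 7.16 in male CLP plus landiolol hearts, and 6.95 to 7.44, 6.33 to 6.92 and 6.51 to 6.87 in females, and Cd5 was well above background on none of the 32 arrays. Of the dendritic cell genes 4 of 8 fell and 0 rose with CLP in males and 3 of 7 fell and 0 rose in females. Of all genes, 4.29% fell and 3.95% rose in males, and 1.89% and 1.92% in females. Among the genes that fell was RT1-Da, by 1.34 (adjusted p = 0.000214) and by 1.67 (0.00316) in this order. Xcr1 was well above background on no array. The part of these cells in the level of Xcl1 was not tested.

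Of 22 receptor genes, atypical ones included, 12 were tested, Cx3cr1 among them by a probe whose values are not read as its level. The 4 that passed, Ccr10, Ccr9, Ackr1 and Ackr4, did so in 1 or 2 comparisons each. The share of all genes that passed in at least 1 comparison was not counted, so this number is a description only. The receptors of many ligands named above were too close to background to be tested. Cxcr1, Cxcr2, Cxcr6, Ccr1l1, Ccr2, Ccr3, Ccr4, Ccr6, Ccr7 and Ccr8 passed the filter in no sex, and the best measured of them, Cxcr2, was well above background on 8 of 32 arrays. Cxcr3, the receptor of Cxcl9, Cxcl10 and Cxcl11, was tested in males, where it was well above background on 4 of 5 sham, 1 of 5 CLP and 3 of 6 CLP plus landiolol arrays, and differed from sham by -0.44 and -0.09 without passing.

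Ccr10, the receptor of Ccl27 and Ccl28, was lower with landiolol than in sham hearts of both sexes. Male levels were 7.25, 7.83, 7.88, 8.2 and 7.31 in sham and 6.39, 7.17, 7.57, 7.74 and 6.22 in CLP hearts, and ranged from 5.26 to 6.49 with a median of 6.09 in CLP plus landiolol hearts. Female levels were 6.98, 6.8, 6.6, 7.32 and 6.33 in sham and 6.87, 6.65, 6.63, 6.35 and 4.42 in CLP hearts, the last not well above background, and ranged from 5.04 to 5.89 with a median of 5.1 in CLP plus landiolol hearts. In both sexes the landiolol hearts lay below all sham hearts, and the CLP hearts reached into both ranges in males.

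Ccr10 fell by 1.71 (0.31, adjusted p = 0.00239), 3.27-fold, in male CLP plus landiolol hearts and fell by 1.57 (0.35, 0.00833), 2.98-fold, in females. Against CLP the differences were -1.03 (adjusted p = 0.118) and -0.95 (0.384), and CLP itself stood -0.68 and -0.62 from sham (0.178 and 0.341). The male call held without each array in turn, whereas the female call was lost, at adjusted p of up to 0.0258, without any of the 11 arrays except landiolol replicate 4. With the row of the slide in the model the female difference was -0.24 (adjusted p = 0.924). Without female CLP replicate 5 the female difference from CLP passed.

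Ccr9, the receptor of Ccl25 that guides T cells to the gut, was the member that passed between CLP plus landiolol and CLP. Male CLP levels were 9.67, 8.96, 9.06, 9.05 and 9.07, and male landiolol hearts ranged from 9.84 to 11.28 with a median of 10.6, above all of them. Male sham levels were 9.99, 9.11, 9.16, 9 and 10.08, which overlapped with both. Ccr9 rose by 1.47 (0.27, adjusted p = 0.0148), 2.77-fold, against CLP and stood 1.17 above sham (0.27, 0.0132). It was lost without CLP replicate 4 (adjusted p = 0.052). In females the landiolol hearts ranged from 9.82 to 10.77 and stood 0.83 above CLP (adjusted p = 0.244).

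**Figure D4:**
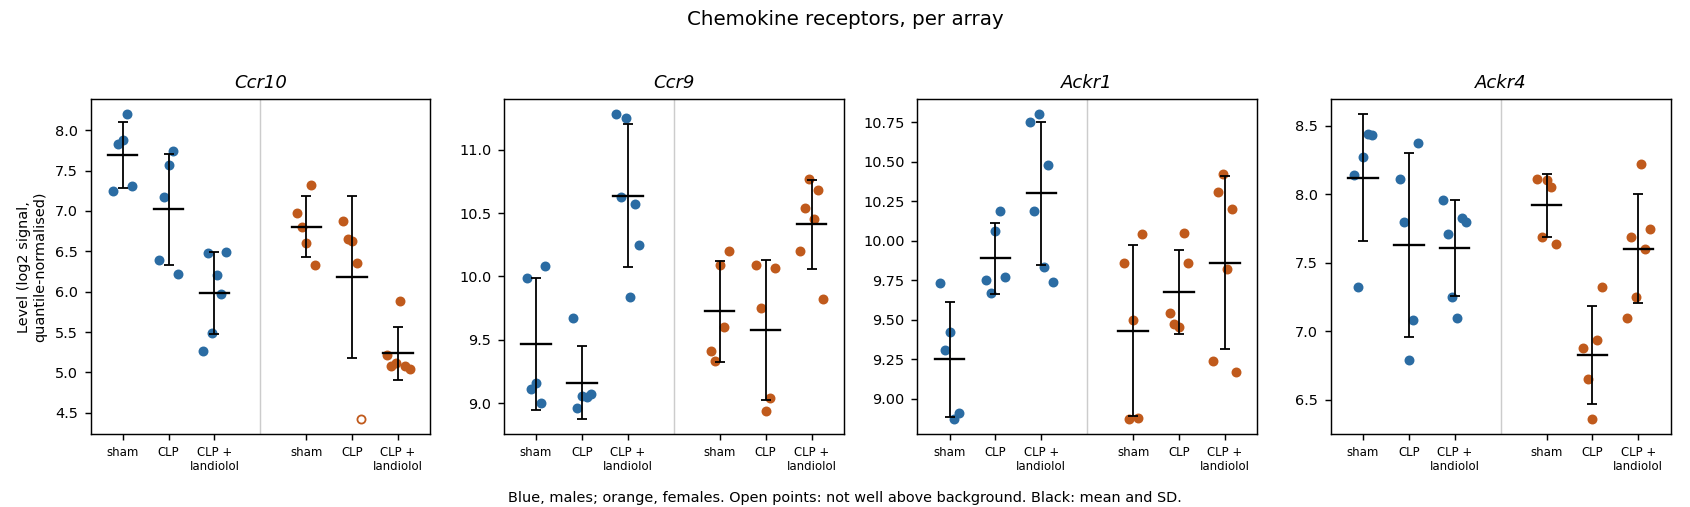
Level of the 4 receptors that passed in at least 1 comparison on each array (vertical axis, log2 signal after quantile normalisation) in the 3 groups of males (blue, left) and females (orange, right), with mean and SD in black and open points not well above background. Ccr10 is lowest and Ccr9 highest in the landiolol groups, and the 5 female CLP points of Ackr4 lie below all female sham points.

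The atypical receptors, 4 genes, were all tested. Ackr1, the Duffy antigen of venular endothelium that binds many inflammatory chemokines, rose in male CLP plus landiolol hearts. Male levels were 9.73, 9.31, 9.42, 8.87 and 8.91 in sham and 9.75, 9.67, 10.06, 10.19 and 9.77 in CLP hearts, and ranged from 9.74 to 10.8 with a median of 10.33 in landiolol hearts. The lowest landiolol heart was just above the highest sham heart. Ackr1 rose by 1.05 (0.21, adjusted p = 0.00556), 2.07-fold, and its other probe differed by 0.79 and did not pass (0.0875). The call was lost without any of sham replicates 2 to 5 and landiolol replicates 1, 2, 3 and 5 (adjusted p up to 0.0199). In CLP hearts the difference was 0.64 (adjusted p = 0.0647), and in females 0.24 and 0.43.

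Ackr4, which removes Ccl19, Ccl21 and Ccl25, fell in female CLP hearts. Female levels were 8.11, 7.69, 8.1, 8.05 and 7.64 in sham and 6.88, 6.65, 6.36, 6.94 and 7.32 in CLP hearts, and ranged from 7.1 to 8.22 with a median of 7.65 in CLP plus landiolol hearts. Sham and CLP did not overlap, and the landiolol hearts overlapped with both. Ackr4 fell by 1.09 (0.21, adjusted p = 0.00447), 2.12-fold, with CLP, and its other probe differed by -1.23 and did not pass (0.0719). The call was lost without sham replicate 1, 3 or 4 or CLP replicate 2 or 3 (adjusted p up to 0.0144), and the difference of 0.77 between CLP plus landiolol and CLP did not pass (0.179). Ackr3, which takes up Cxcl12, differed from sham by -0.69 in female CLP hearts, without overlap (adjusted p = 0.0382), and Ackr2, which takes up inflammatory CC ligands, differed by between -0.6 and 0.

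The brightest probe of Cx3cr1, the receptor of Cx3cl1, is shown because its sequence bears on what its level means. It lies at chr8:125033728-125033787 (minus strand, rn4) and shares a run of at least 20 bases with 53 probes of other genes and with 69 of 33469 promoter windows of 300 bases (0.206%). Of the 78 member probes, 74 share no such run with any promoter window. A stretch of 30 bases is printed as the files give it, 5′ to 3′, with no base in capitals, and it ends in a run of alternating letters.
Cx3cr1, bases 30 to 59: aaacagattcacacacacacacacacacac
The values of this probe are therefore not read as levels of Cx3cr1. The other Cx3cr1 probe differed by 0.27 (adjusted p = 0.527) between CLP and sham in males and by -0.51 (0.317) in females, and did not pass. Ccr1, a receptor of Ccl3 and Ccl5 on monocytes, was well above background on between 3 and 6 arrays per group and differed from sham by between -0.16 and 0.91 without passing.

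The genes through which chemokine receptors signal were tested as a list of 34, of which 31 were tested in males and 28 in females. With CLP 7 rose and 1 fell in each sex, and with CLP plus landiolol 9 rose and 0 fell in males and 6 rose and 0 fell in females. Of all genes, 3.95% rose and 4.29% fell with CLP in males, and 1.92% and 1.89% in females. With CLP plus landiolol these shares were 2.53% and 1.89% in males and 3.17% and 2.37% in females. The median differences were 0.33 and 0.45 in males and 0.38 and 0.36 in females. Over all genes the medians were 0 and 0 in males and -0.02 and -0.01 in females. Rac2, a GTPase of leukocytes that drives their movement, rose by 1.37 (adjusted p = 3.76e-05) with CLP in males and 1.28 (0.00371) in females. Grk5 and Grk3, kinases that desensitise receptors, rose by 0.9 (0.00108) and 1.85 (0.00102) in males and by 0.76 (0.00916) and 1.73 (0.00463) in females. Rgs10, an inhibitor of G protein signalling, fell by 1.11 (0.000147) in males, and Rgs5, of the same family and known from pericytes, fell by 0.91 (0.00588) in females. In male CLP plus landiolol hearts Rac2 was 0.68 (0.0291) and Rgs10 0.69 (0.0258) higher than in CLP hearts.

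Of 11 genes related to chemokines by function but outside the name rule, 9 were tested. Dpp4, the peptidase that cleaves and inactivates Cxcl10 and Cxcl12 among others, fell in all 4 comparisons with sham. It fell by 2.48 (adjusted p = 0.000349) with CLP and fell by 1.7 (0.00646) with CLP plus landiolol in males, and in females fell by 1.32 (0.000462) and fell by 1.33 (0.000255). Cklf, a chemokine-like factor, rose by 1.16 (0.000674) in male CLP plus landiolol hearts. Of the platelet list 3 genes in males and 2 in females were tested, and 0 passed by limma, as did 0 of 10 cardiomyocyte genes and 0 of 3 atrial genes.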

How the data were processed

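Left ventricular RNA of 32 rats was hybridised to 1-colour Agilent arrays with 60-base probes, 1 animal per array. The deposited scanner files hold the intensity of each spot as extracted by the authors with Agilent Feature Extraction 10.5, background-subtracted but not normalised between arrays, and probe coordinates are those of build rn4. The table the authors deposited holds log2 values, quantile-normalised within a sex and filtered. No source used here says if an offset preceded the log. The table was used as an alternative.

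The processed signal was taken to log2, control spots and outlier-flagged spots were left out, spots of the same probe were averaged, and quantile normalisation was applied within a sex. Probes had to be well above background on 80% or more of the arrays in 1 or more groups. This kept 25866 male and 25395 female probes. Differences were tested with limma 3.58.1 (R 4.3.3) on the 3 groups of a sex, with Benjamini-Hochberg adjustment over all probes kept, at an FDR of 1% for comparisons with sham and 5% between the septic groups. Values in brackets after a difference are its standard error and adjusted p. The sex difference was an interaction term (FDR of 5%), for which all 32 arrays were normalised jointly. Each gene was reported by 1 probe, the one with the highest mean of those kept in both sexes, and background shares were counted over 1 probe per gene (19444 in males, 19177 in females). Levels on every array were given for genes called in at least 1 comparison. The members and lists were chosen with earlier results of these data known. The code was checked on simulated data.

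Groups came from the sample labels, and replicates were numbered in accession order. Alternatives were 75th percentile scaling, normexp background correction with an offset of 50, normalisation of both sexes together, other filters, other FDRs, SAM, slide and row of the slide as terms, single slides, fits of the compared groups alone, the table of the authors and leaving out each array. Reading Cx3cr1 from its next probe was chosen after seeing the data. Some genes are counted but not reported here by name. Promoters came from RefSeq (GRCr8), of which 42 members matched. Protein sequences were not used here.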

Additional observations from a re-analysis of the deposited data

Results flagged for a closer look

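Among the 84 groups of arrays examined for the 14 genes that passed a test, 5 held an array that stood apart from the others of its group by Dixon's criterion, which chance gives in about 1 in 20 groups. Ackr4 in male sham replicate 2 was at 7.32, the lowest, with the nearest array at 8.14. Ccr10 in female CLP replicate 5 was at 4.42, the lowest, with the nearest at 6.35. Ccr10 in female CLP plus landiolol replicate 4 was at 5.89, the highest, with the nearest at 5.21. Ccr9 in male CLP replicate 1 was at 9.67, the highest, with the nearest at 9.07. Cxcl16 in male CLP replicate 3 was at 10.98, the lowest, with the nearest at 11.53.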

How the results depend on the processing

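The few arrays per group limit every count. In males, the count of members called with CLP (8 at the settings reported) was 5 with no filter on dim probes and 3 with only the compared groups in the fit. The male count for CLP plus landiolol vs CLP (1) was 0 at an FDR of 1%, 2 with normexp correction and 3 by SAM. In females, the count for CLP plus landiolol vs sham (7) was 11 at an FDR of 5% and 1 with the row of the slide in the model. The sex difference of CLP plus landiolol vs sham (0) was 1, Cxcl9, with normexp correction. The cause was not tested, except that an FDR changes a count by its construction. Leaving out each array in turn gave 4 to 8 calls for CLP and 4 to 7 for CLP plus landiolol against sham in males, 5 to 7 and 6 to 9 in females, 0 to 1 between the septic groups in each sex, and 0 to 0, 0 to 2 and 0 to 0 for the sex differences. The male CLP count was 4 without sham replicate 2, 5 without sham replicate 5 and 4 without CLP replicate 4. The male count between the septic groups was 0 without CLP replicate 4, and the female one was 1, Ccr10, without CLP replicate 5. The sex difference count was 2 without male sham replicate 1 and 1 without female sham replicate 4. Over the called genes, 307 values under other settings gave 235 calls and 0 changes of direction, and 293 values without 1 array gave 240 calls and 0 changes of direction. These genes were chosen by their calls and refitted on mostly the same arrays, so the lack of changes of direction adds no support. With single slides, which hold fewer arrays, 8 of 28 calls passed on slide 1 and 1 on slide 2. No paired analysis was possible because the labels give no replicate numbers and each animal's code in them is its own, shared with no other array. Slide was fitted as a term instead.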
